A study of Mus musculus with 10 samples.

Results

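The genes of oxidative phosphorylation were examined in RNA from sorted mouse liver cells, with 5 libraries of hypertrophied hepatic stellate cells (hypHSCs) and 5 of quiescent hepatic stellate cells (qHSCs). Nuclear entries were taken by their symbol: those that begin with Nduf, Uqcr, Cox4 to Cox8 or Atp5, the 4 subunits of succinate dehydrogenase, Cycs and Cyc1. All entries placed on the mitochondrial chromosome were added. This gave 114 of the 62322 entries of the table, 101 nuclear and 13 mitochondrial, and both sets are described apart. Of these, 98 nuclear and 13 mitochondrial entries reached 10 normalized counts in at least 5 libraries and were tested. Cox7b2 and Ndufb11b had no reads in any library, and Cox8c had reads in qHSC 5 only, at 2.25 normalized counts.

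Oxidative phosphorylation takes place in the inner mitochondrial membrane. Complexes I and II pass electrons from NADH and succinate to ubiquinone, complex III passes them on to cytochrome c, complex IV hands them to oxygen, and the ATP synthase uses the proton gradient built on the way to make ATP. Most subunits are encoded in the nucleus, whereas the small circular genome of the mitochondrion encodes some core subunits of complexes I, III and IV and of the ATP synthase, together with both mitochondrial ribosomal RNAs and transfer RNAs. Several complex IV subunits exist as common and tissue-restricted isoforms that replace each other.

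All mice were C57BL/6J. The hypHSCs came from mice fed CDAHFD, a high-fat diet deficient in choline in which amino acids replace protein, with hypHSCs 1 and 2 after 13 weeks of diet at an age of 19 weeks and hypHSCs 3, 4 and 5 after 12 weeks at 18 weeks of age. The qHSCs came from mice on standard diet, with qHSCs 1, 2 and 5 aged 36 weeks and qHSCs 3 and 4 aged 34 weeks. hypHSCs were sorted on green autofluorescence and qHSCs on blue, and the paper added antibiotics to the preparation buffers of CDAHFD livers. Diet, age, dissociation, antibiotics and sorting gate therefore cannot be told apart from the group. Replicates are preparations, and p-values set the difference between groups against the spread between them. The paper does not say whether each hypHSC library came from a different mouse. It chose the hypHSC preparations with the highest RNA integrity. Their mean integrity was below that of the chosen qHSC preparations, which the paper reports as no difference. Among the larger set of RNA extracted for sequencing, its supplement marks a significant difference in integrity between hypHSCs and qHSCs. Dead cells were on average more frequent in its sorted hypHSCs than in its sorted qHSCs. The part of RNA quality and viability in the results was not tested.

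The libraries held 36101377 to 49846581 reads in hypHSCs and 39416597 to 52199207 in qHSCs. The quiescent stellate cell and macrophage markers went against the stellate cell name of the hypHSC libraries. The paper based that name on retinoid fluorescence, on stellate cell proteins in sorted cells and on RNA such as Acta2 and collagens. Markers of activated stellate cells were not among the lists examined. All 10 quiescent stellate cell markers (Lrat, Des, Dcn, Reln, Colec10, Hhip, Rgs5, Pdgfrb, Ngfr and Pth1r) fell in hypHSCs, where their summed level was 20477 to 47978 normalized counts against 816468 to 1206092 in qHSCs, and Hhip had no reads in 3 of 5 hypHSC libraries. All 10 core macrophage markers rose, with a sum of 1176867 to 1489183 in hypHSCs against 4765 to 95881 in qHSCs, where qHSCs 1 and 4 were the highest. Of 6 resident Kupffer cell markers 3 rose, with sums of 18347 to 34538 in hypHSCs and 1270.4 to 44861 in qHSCs. None of 8 hepatocyte markers passed the test, with sums of 71875 to 145458 and 63309.9 to 136118. Of 5 sinusoidal endothelial markers tested 2 rose and 1 fell, with sums of 677 to 1095 and 929 to 2094. All 3 neutrophil markers tested rose, with sums of 1454 to 5814 and 0 to 109.5, and none of 4 erythroid markers passed the test, with sums of 51.6 to 4693 and 841 to 28886. In bulk RNA fewer cells of a type and less RNA per cell cannot be told apart, and the part of these markers in the results that follow was not tested.

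Differences are given as log2 fold changes of normalized counts plus 1, hypHSC over qHSC, with the standard error (SE) of limma and p-values adjusted over all 24320 entries tested. An entry was called a DEG at an adjusted p of at most 0.05 where it also moved by at least 1 on the log2 scale in either direction. The median log2 fold change over all entries tested was -0.25. It moved to -0.72 when library totals were made equal and to -1.17 when libraries were scaled to Hprt, Pgk1 and Actb, so that each direction is relative to the scale.

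The 13 mitochondrial entries carry no gene symbol, and their content was read from their coordinates on the mm39 mouse genome. They hold mt-Rnr1, mt-Rnr2 and most of the protein-coding genes, some entries join several genes, and 5 have at least 90% of their span within another entry. Counts of a joined entry do not tell its genes or strands apart. The paper primed its cDNA on stretches of A (oligo-dT), and how fully each mitochondrial RNA was captured was not tested. The genes mt-Co2, mt-Atp6 and mt-Atp8 and most of mt-Co3 have no entry on the mitochondrial chromosome. Their sequence is listed on chromosome 1, in entries that, with 1 for a stretch of mt-Co1, make 4 entries without symbol that lie in a nuclear copy of mitochondrial DNA (chr1:24650616-24655269, minus strand). This copy matched chrM:6390-11042 at 99.936% identity over 4654 aligned bases, with 2 mismatches and 1 gap. Reads of 59 bases from either place are the same except where they span a difference. The mismatches are A6393T near the edge of the match, within mt-Co1, and T9461C at the first bases of mt-Nd3, counted from the start of the mitochondrial chromosome, with the mitochondrial base first. The 59 bases around T9461C are shown 5′ to 3′ in the direction of the gene, with the differing base in capitals, because they show how little tells both sources apart.
mitochondrial genome, chrM:9432-9490: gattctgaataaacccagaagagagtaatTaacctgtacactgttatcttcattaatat
nuclear copy, chr1:24652169-24652227, minus strand: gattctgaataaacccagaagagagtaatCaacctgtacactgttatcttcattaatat

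All 13 mitochondrial entries rose in hypHSCs and all were DEGs, with log2 fold changes of 1.64 to 2.56, SEs of 0.40 to 0.52 and adjusted p-values of 0.0007 to 0.025. Among all entries tested, 16.1% were DEGs higher in hypHSCs and 19.1% rose at an adjusted p of at most 0.05. In 12 of 13 entries the lowest hypHSC library lay above the highest qHSC library, against 15.2% of all entries tested. The exception was the shorter mt-Nd3 entry. The 13 entries share the genome and in part their bases, so they are not independent measurements. Scaled to Hprt, Pgk1 and Actb, 6 of 13 passed the test, all 6 as DEGs and higher, with a median of 1.02. Without qHSCs 1 and 4, which had the most macrophage marker reads, 10 of 13 did.

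The entry of mt-Co1, the catalytic core subunit of complex IV (chrM:5325-6941), had the most normalized counts of the 13, and 34.1% of its span is also in the copy. It stood at 4331345, 1975418, 666389, 609453 and 1045346 normalized counts in hypHSCs 1 to 5 and at 237108, 204166, 251325, 277567 and 277169 in qHSCs 1 to 5, a log2 fold change of 2.38 (SE 0.52, adjusted p = 0.0029). All hypHSC libraries were above all qHSC libraries, and within hypHSCs the highest library was several times the lowest.
The entry that joins mt-Nd5, mt-Nd6 and mt-Cytb, subunits of complex I and the cytochrome b of complex III (chrM:11742-15288), had 804834, 575274, 201959, 211562 and 347683 against 93836, 85836, 101488, 118095 and 143316 normalized counts, a log2 fold change of 1.79 (SE 0.40, adjusted p = 0.0035). The groups did not overlap. The entry of mt-Rnr2, the large ribosomal RNA, with mt-Nd1 (chrM:1094-3841) had 741652, 365939, 125947, 80411 and 129996 against 48679, 45254, 46979.7, 48634 and 48206, a log2 fold change of 2.10 (SE 0.52, adjusted p = 0.0065). Here the qHSC libraries were close to each other. The entry of mt-Rnr1, the small ribosomal RNA (chrM:68-957), had 223849, 84779, 28002, 28593 and 43830.2 against 14117, 13898, 16315, 14575 and 16236, a log2 fold change of 1.96 (SE 0.49, adjusted p = 0.0074).

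The other protein-coding entries are of complex I. mt-Nd4l with mt-Nd4 (chrM:9876-11544) had 67787 to 512068 normalized counts in hypHSCs and 46618 to 56895 in qHSCs and a log2 fold change of 1.68 (SE 0.49, adjusted p = 0.015), and 69.9% of its span is also in the chromosome 1 copy. mt-Nd2 (chrM:3845-5171) had 29976 to 177937 and 14762 to 22572, with a log2 fold change of 1.70 (SE 0.44, adjusted p = 0.0082), and lies outside the copy. Both had a smaller log2 fold change than mt-Co1, a difference that was not tested. The shorter entry of mt-Nd3 (chrM:9459-9804) had 8227, 4541, 1355, 840.3 and 1570.0 against 747, 682, 739, 691 and 877, a log2 fold change of 1.64 (SE 0.52, adjusted p = 0.025). hypHSC 4 lay below qHSC 5, and without single libraries the adjusted p reached 0.058. The longer entry around it (chrM:9203-9888) showed a log2 fold change of 1.91, and that of mt-Nd5 and mt-Nd6 (chrM:11720-14070) one of 2.02. The steepest rise, 2.56, was in the entry of the control region with the tRNA gene mt-Tp (chrM:15356-16294), at 2056 to 15313 against 814 to 1009 normalized counts.

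The 4 entries of the chromosome 1 copy moved alike, with log2 fold changes of 1.76 to 2.44 and adjusted p-values of 0.0022 to 0.034. The entry with the sequence of mt-Atp8, mt-Atp6 and mt-Co3 (chr1:24652269-24653895), which encode ATP synthase and complex IV subunits, had 3021572, 1782207, 705196, 582459 and 863812 normalized counts in hypHSCs against 241704, 228980.1, 294045, 321904 and 355309 in qHSCs. That with mt-Co2 (chr1:24653960-24654649) had 554398, 305334, 113217, 48422 and 51034 against 38679, 35764, 39502, 46343 and 41259, a log2 fold change of 1.76 (SE 0.61, adjusted p = 0.034). For mt-Co2 the adjusted p reached 0.077 when single libraries were left out. hypHSCs 4 and 5 were just above the qHSC range, and the ratio of mt-Co2 to the mt-Co1 entry was 0.079 and 0.049 there against 0.128 to 0.170 in hypHSCs 1 to 3 and 0.149 to 0.175 in qHSCs. Whether these reads came from the mitochondrion or from the copy cannot be told from the table.

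**Figure D1:**
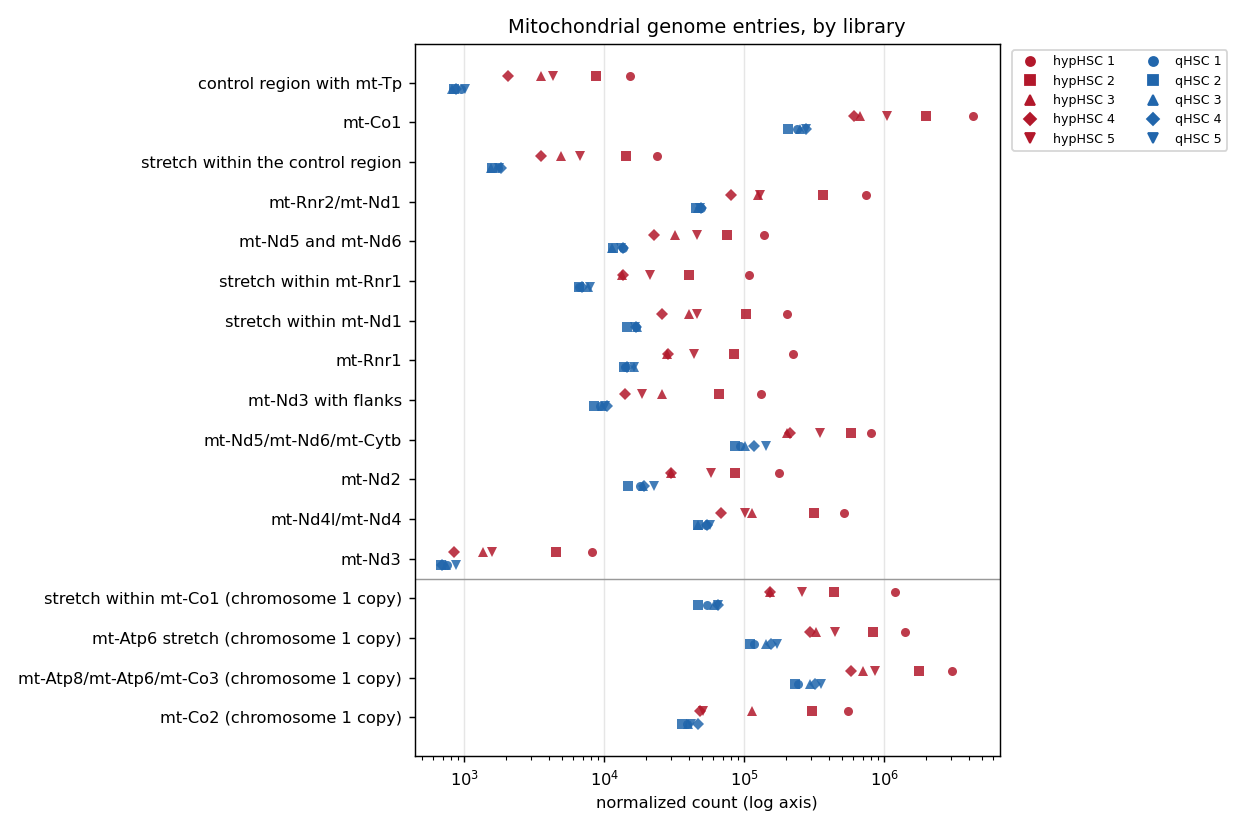
Normalized counts of the 13 mitochondrial genome entries (above the line) and the 4 chromosome 1 copy entries (below it) in each library, on a log axis, 1 symbol per library. In all 13 mitochondrial entries hypHSC 1 is the highest library, and only in the shorter mt-Nd3 entry does a hypHSC library fall below a qHSC library.

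Within hypHSCs the mitochondrial entries followed the library rather than the gene. hypHSC 1 was the highest of all libraries in 13 of 13 entries, hypHSC 4 was the lowest hypHSC library in 10 and hypHSC 3 in the other 3. Both libraries after 13 weeks of diet lay above the 3 libraries after 12 weeks in 13 of 13 entries, against 11 of the 98 nuclear entries tested. With 2 against 3 libraries this difference was not tested. When the 12-week hypHSCs alone were compared with the qHSCs, 13 of 13 entries still rose and 10 were DEGs, with a median log2 fold change of 1.16, and with the 13-week hypHSCs alone 13 were DEGs with a median of 3.20.
As a share of all reads in the table, the 13 entries made up 12.8%, 7.27%, 3.10%, 2.21% and 3.42% in hypHSCs 1 to 5, and 1.44%, 1.25%, 1.56%, 1.61% and 1.58% in qHSCs 1 to 5. The nuclear entries together made up 1.42%, 1.28%, 1.27%, 1.98% and 2.48% in hypHSCs and 1.37%, 1.27%, 1.51%, 1.46% and 1.46% in qHSCs. The shares of the mitochondrial entries did not overlap between groups, whereas those of the nuclear entries did. There were 8.997, 5.70, 2.44, 1.12 and 1.38 mitochondrial reads per nuclear one in hypHSCs, against 0.99 to 1.10 in qHSCs. Nested entries are part of these sums, and the table does not tell whether a read was counted more than once. Without them, the mitochondrial share was 2.08% to 12.0% in hypHSCs and 1.16% to 1.502% in qHSCs.

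**Figure D2:**
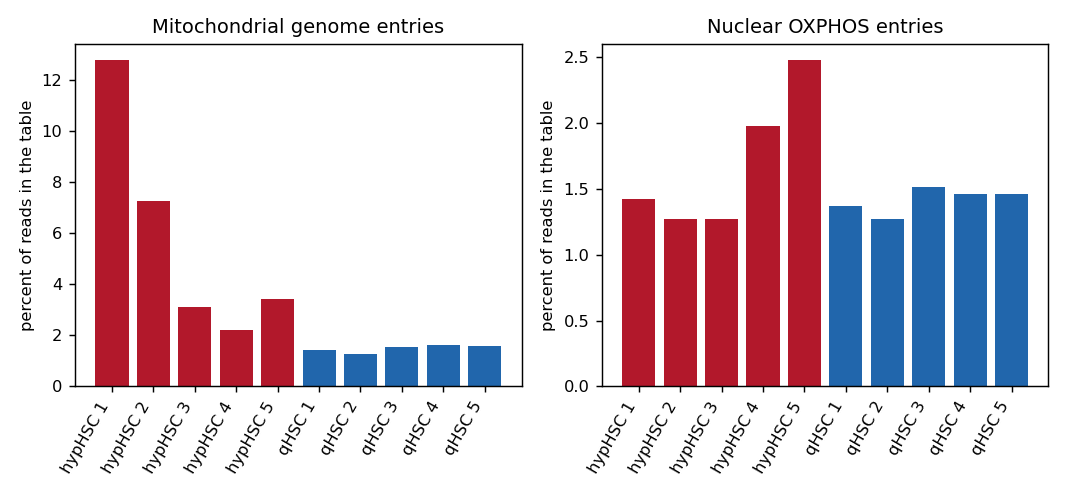
Percent of the reads in the table that fell on the 13 mitochondrial genome entries (left) and on the 101 nuclear OXPHOS entries (right), 1 bar per library, each axis starting at 0. Mitochondrial shares are highest in hypHSCs 1 and 2 (12.8% and 7.27%), nuclear shares in hypHSCs 4 and 5 (1.98% and 2.48%).

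Of the 98 nuclear entries tested, 42 rose and 6 fell at an adjusted p of at most 0.05, where 43.9% of all entries passed, 19.1% higher and 24.9% lower in hypHSCs. The counts of each complex and gene list below are to be read against these shares. There were 23 DEGs higher and 3 lower in hypHSCs, against 16.1% and 22.1% of all entries, or 38.2% in both directions. The median log2 fold change of the nuclear entries was 0.59, and 87 of 98 lay above the median of all entries tested. Groups did not overlap for 28 entries that were higher and 5 that were lower in hypHSCs, against 15.2% and 20.6% of all entries. The split depended on the scale: with equal library totals 15 rose and 16 fell, and with Hprt, Pgk1 and Actb as reference 2 rose and 24 fell, with medians of 0.10 and -0.35 against medians over all entries of -0.72 and -1.17. Hprt and Pgk1 themselves rose by log2 fold changes of 1.25 and 1.44 on the deposited scale.

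The rises were led by hypHSC 5. It was the highest of all libraries for 35 of the 42 entries that rose and hypHSC 1 for the other 7, whereas hypHSC 3 was the lowest hypHSC library for 38. hypHSCs 4 and 5 both lay above the 8 other libraries for 57 of 98 entries. Without hypHSC 5 there were 13 DEGs higher and 3 lower, and with hypHSCs 1, 2 and 3 alone 11 higher and 4 lower, while 33 rose and 8 fell at an adjusted p of at most 0.05. Leaving out qHSCs 1 and 4, the ones with the most macrophage marker reads, left 18 that rose and 3 that fell, and 14 DEGs higher and 2 lower.

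**Figure D3:**
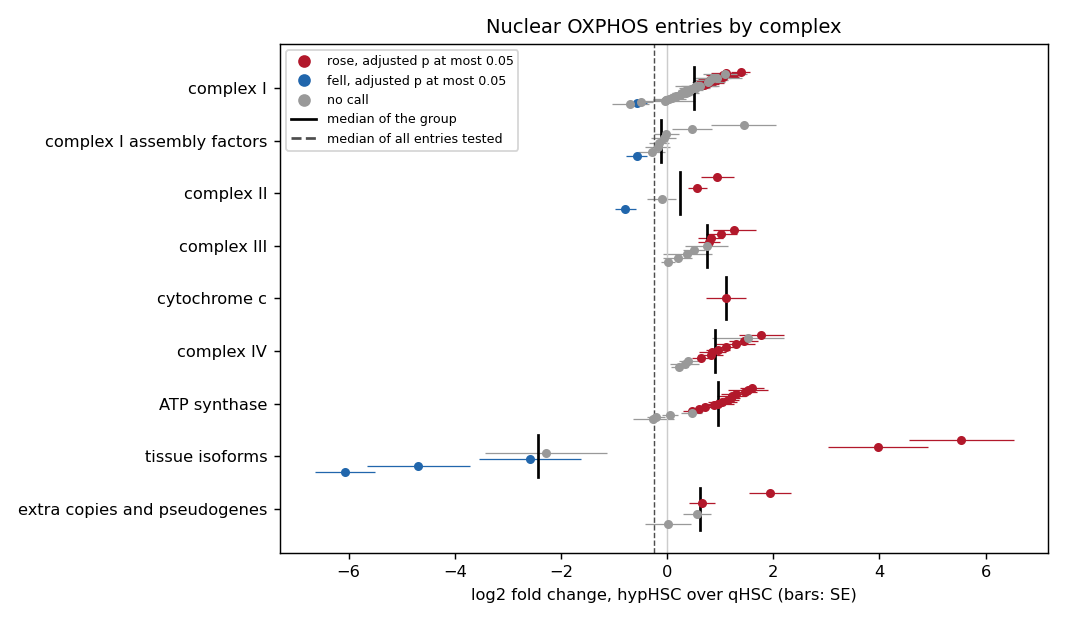
Log2 fold change of the 98 nuclear entries tested, grouped by complex, with bars of 1 SE, colour for the call, a black line for each group's median and a dashed line for the median of all entries tested. ATP synthase and complex IV entries sit mostly to the right of 0, complex I spreads from -0.69 to 1.38, and the tissue isoforms lie at both ends.

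The ATP synthase was the complex with the largest share of calls. Of its 17 entries 13 rose and none fell, 8 were DEGs, and the median log2 fold change was 0.96. In the membrane part (Fo) with the peripheral stalk 11 of 12 rose, with a median of 1.09. In the catalytic part (F1), counted with its central stalk, 2 of 5 rose, the stalk subunits Atp5c1 (0.47) and Atp5e (1.21), with a median of 0.06. Atp5md, a small subunit that holds the dimeric enzyme together, had 4659.7, 4139, 3513, 6027 and 8601 normalized counts in hypHSCs and 1643, 1383, 1860.4, 1739 and 1867 in qHSCs, so that its log2 fold change was 1.60 (SE 0.24, adjusted p = 0.00022). Atp5k, the e subunit at the dimer interface, had 6759, 5104, 3898, 9628 and 18470.4 and 1732, 2458, 3552, 2469 and 3308, a log2 fold change of 1.52 (SE 0.38, adjusted p = 0.007). In both, every hypHSC library was above every qHSC library and hypHSC 5 was the highest. Of the 59-base stretches of Atp5md 98% also lie in overlapping or other genes. Atp5j2, the f subunit, had 7126 to 22200.2 and 3781 to 5533, a log2 fold change of 1.29 (SE 0.27, adjusted p = 0.0025).
The same mature c subunit of the proton-driven ring is encoded by 3 genes. Atp5g1 had 8135, 7889.6, 5380.4, 9718 and 13159 against 2925, 2660.1, 3463, 3141 and 3271 normalized counts, a log2 fold change of 1.46 (SE 0.22, adjusted p = 0.00027). Atp5g2 and Atp5g3 had 1098 to 2219 against 677 to 945 and 2562 to 3610.0 against 1705 to 2091, with log2 fold changes of 0.88 (SE 0.21, adjusted p = 0.0046) and 0.70 (SE 0.15, adjusted p = 0.0027). All 3 rose on the deposited scale, but Atp5g2 and Atp5g3 were at -0.06 and -0.23 when scaled to Hprt, Pgk1 and Actb. Of the 59-base stretches of Atp5g1 and Atp5g2, 82.5% and 88.3% also occur elsewhere in the genome, so that their counts are uncertain. The large head subunits did not pass the test. Atp5b, the catalytic β subunit, had 17968, 18156, 14211, 14584 and 16050.5 against 16587, 17002, 13229.8, 15431 and 15359, a log2 fold change of 0.06 (SE 0.15, adjusted p = 0.78), and Atp5a1, the α subunit, 8879, 8504, 7679, 6067 and 6197 against 9306, 9243, 7046, 8587 and 8858, a log2 fold change of -0.22 (SE 0.17, adjusted p = 0.32). The groups overlapped for both.

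Atpif1, the inhibitor protein that binds the ATP synthase when the proton gradient fails, is not among the 114 entries by symbol. It had 36462, 26097, 21084, 45535 and 78888 normalized counts in hypHSCs and 6869.6, 6536, 9064, 8731 and 8759 in qHSCs, which gave a log2 fold change of 2.24 (SE 0.32, adjusted p = 0.00017), and the groups did not overlap. Among 5 assembly factors of the ATP synthase, Dmac2l fell (-0.83) and none rose.

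In complex IV 8 of 12 common subunits rose and none fell, with a median log2 fold change of 0.91. Cox7c (chr13:86192917-86194914), a small membrane subunit, had 9585, 7756, 5592, 14721 and 38105 normalized counts in hypHSCs and 3228, 2886, 3677, 3907 and 3758 in qHSCs, which gave a log2 fold change of 1.77 (SE 0.42, adjusted p = 0.0054). hypHSC 5 stood apart here, yet the lowest hypHSC library was above all qHSC libraries. Of its 59-base stretches 71% occur elsewhere, and the count of the processed copy Cox7c-ps1 was 0.295 to 0.439 of that of Cox7c in the 10 libraries. Cox7b, another membrane subunit, had 8016 to 24458 against 3711 to 6057, a log2 fold change of 1.44 (SE 0.27, adjusted p = 0.0012). Cox5b, a zinc-binding subunit on the matrix side, had 4106, 4577, 3567, 8530.2 and 14968 against 2020.2, 2029, 2558, 2569.6 and 3543, a log2 fold change of 1.30 (SE 0.37, adjusted p = 0.014). Of the 59-base stretches of Cox5b 35.3% occur elsewhere in the genome. Cox4i1, the regulatory subunit that is the main form in most tissues, had 43459.8, 31080.3, 26409.6, 36136 and 38494 against 16784, 14645, 13922, 18557 and 16210.0, a log2 fold change of 1.12 (SE 0.18, adjusted p = 0.00045). For Cox4i1 hypHSC 5 was not the highest library, and the groups were well apart. Cox5a did not pass the test, at 528, 355, 338, 3212 and 3631 against 272, 269, 335, 262 and 579 normalized counts and a log2 fold change of 1.53 (SE 0.68, adjusted p = 0.091). hypHSCs 4 and 5 had several times the Cox5a count of the other 8 libraries, and qHSC 5 lay above hypHSCs 1, 2 and 3.
The other common subunits were Cox6b1 (0.97), Ndufa4 (0.85), Cox7a2 (0.82) and Cox8a (0.64), which rose, and Cox6a1 (0.40, SE 0.17, adjusted p = 0.084), Cox6c (0.33, SE 0.27, adjusted p = 0.35) and the supercomplex factor Cox7a2l (0.23, SE 0.17, adjusted p = 0.28), which did not pass the test. On the scale of Hprt, Pgk1 and Actb, Ndufa4, Cox7a2 and Cox8a were at -0.09, -0.12 and -0.30, and on the scale of equal totals Cox6a1 and Cox7a2l were at -0.09 and -0.25. Of 24 assembly factors of complex IV 8 rose and none fell, led by Coa4 (1.76) and Cmc1 (1.74), with a median log2 fold change of 0.14.

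The isoforms that replace common subunits in some tissues gave the most extreme values of all members, in both directions. Ndufa4l2 (chr10:127350808-127353021), a paralogue of the complex IV subunit Ndufa4 known as a target of hypoxia-inducible factor, had 86.2, 55.9, 28.3, 54.5 and 6.05 normalized counts in hypHSCs and 1968, 2276, 2136, 2364 and 3416 in qHSCs, which gave a log2 fold change of -6.07 (SE 0.57, adjusted p = 9.3e-06). Even the highest hypHSC library was far below the lowest qHSC library. Per base of the GENCODE canonical transcript, Ndufa4l2 made up 0.0076% to 0.163% of the sum of Ndufa4l2 and Ndufa4 in hypHSCs and 6.38% to 11.3% in qHSCs. Its transcript overlaps Shmt2 in 73.8% of its 59-base stretches, and the counting did not use strand. Cox4i2 (chr2:152596093-152606957), the isoform of Cox4i1 known from lung and pericytes, had 32.3, 55.9, 4.16, 2.10 and 0 against 251, 176, 180.3, 246 and 172, a log2 fold change of -4.69 (SE 0.97, adjusted p = 0.0023). The groups did not overlap, and its share of the pair was 0% to 0.185% in hypHSCs and 1.08% to 1.52% in qHSCs. Cox4i2 shared no 59-base stretch with another place.
Cox6a2 (chr7:127804608-127805538), the heart and skeletal muscle isoform of Cox6a1, moved the other way, with 232, 98.3, 188, 309 and 413 against 44.4, 0, 0, 5.13 and 8.24 normalized counts and a log2 fold change of 5.54 (SE 0.99, adjusted p = 0.00083). Its share of the pair was 0.835% to 4.04% in hypHSCs and 0% to 0.542% in qHSCs. Cox7a1 (chr7:29883594-29885454), likewise a heart and muscle isoform, had 243, 105, 166, 231 and 644 against 0, 32.4, 33.1, 25.7 and 21.7, a log2 fold change of 3.97 (SE 0.94, adjusted p = 0.0051), and made up 1.87% to 5.83% of the sum with Cox7a2 in hypHSCs and 0% to 1.03% in qHSCs. In both genes all hypHSC libraries were above all qHSC libraries, and the common form remained the larger part by far.
Cox8b, a further muscle isoform, was low throughout, at 0, 15.5, 4.99, 28.3 and 57.5 against 106, 105, 52.0, 43.6 and 47.2 and a log2 fold change of -2.58 (SE 0.96, adjusted p = 0.047). hypHSC 5 lay within the qHSC range, and the adjusted p reached 0.10 when single libraries were left out. Of the 59-base stretches of Cox8b 56.2% also lie in other genes such as Psmd13 or elsewhere in the genome. Cox6b2, a testis isoform, had 162, 81.8, 64.03, 0 and 31.8 against 131, 101, 302, 93.3 and 199 and did not pass the test, with a log2 fold change of -2.28 (SE 1.15, adjusted p = 0.13). As a share of the sum with Cox8a, Cox8b made up 0% to 0.186% in hypHSCs and 0.192% to 0.673% in qHSCs. Cox6b2 made up 0% to 0.715% of the sum with Cox6b1 in hypHSCs and 0.835% to 2.75% in qHSCs. These shares did not overlap between groups, although the counts did. The summed markers of stellate cells and of macrophages did not overlap between groups, as was the case for the counts of Ndufa4l2, Cox4i2, Cox6a2 and Cox7a1. The part of these markers was not tested.

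**Figure D4:**
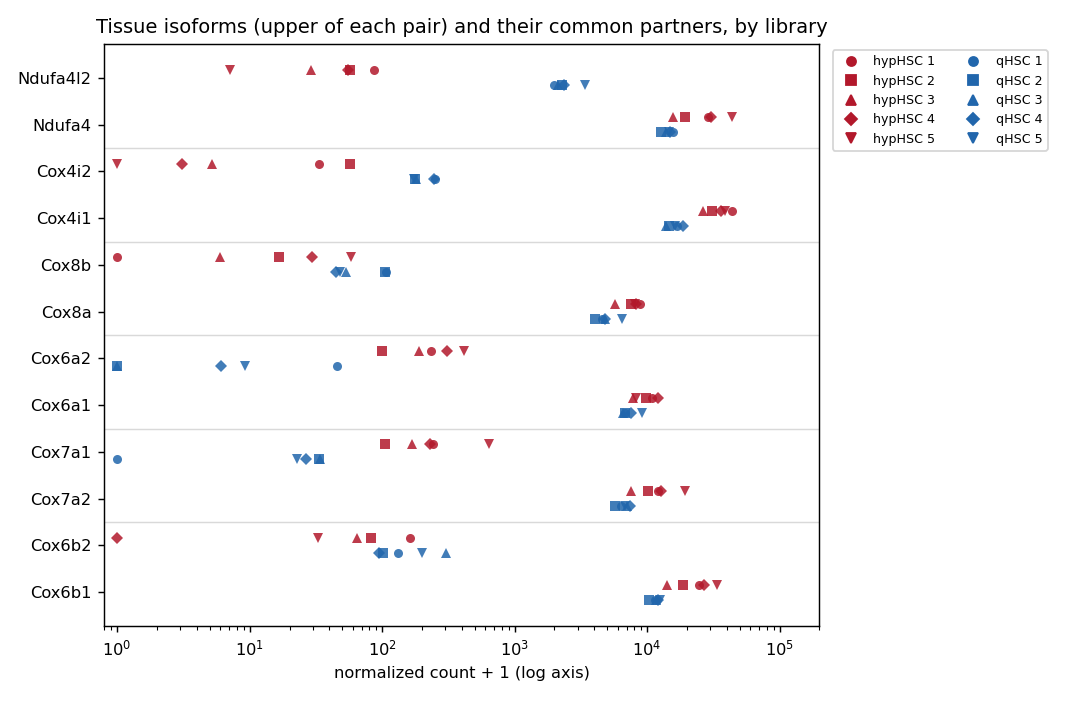
Normalized counts plus 1 of 6 tissue isoforms and their common partners in each library, on a log axis, 1 symbol per library. Ndufa4l2 and Cox4i2 lie lower and Cox6a2 and Cox7a1 higher in all hypHSC libraries than in all qHSC libraries, and each common partner lies above its isoform in every library.

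In complex I 10 of 30 accessory subunits rose and none fell, with log2 fold changes of -0.04 to 1.38 and a median of 0.66. Of the 7 nuclear core subunits, which carry the flavin and the iron-sulphur clusters, none rose and 1 fell, with log2 fold changes of -0.69 to 0.45 and a median of 0.04. The difference between both sets was not tested. Ndufb1, a short membrane-spanning accessory subunit, had 4136, 3922, 3133, 4548 and 5034 normalized counts in hypHSCs and 1527, 1327, 1716, 1841 and 1503 in qHSCs, which gave a log2 fold change of 1.38 (SE 0.17, adjusted p = 6.5e-05). The hypHSC libraries were close to each other and well above the qHSCs. Of its 59-base stretches 51.7% are shared with the overlapping gene Cpsf2. Ndufs1, the largest nuclear core subunit, had 649 to 1479 against 1239 to 1798, a log2 fold change of -0.49 (SE 0.23, adjusted p = 0.11). Ndufv1, which binds NADH, had 6003, 6275, 4753, 5470.0 and 1494 against 7218, 7230.4, 6399, 6579 and 7291, a log2 fold change of -0.69 (SE 0.35, adjusted p = 0.13), so that it did not pass the test although the groups did not overlap.
Among the 8 complex I assembly factors named Ndufaf, none rose and 1 fell, Ndufaf7, with 1446, 1203, 820.0, 1508 and 1198 against 1701, 1535, 1693, 1824 and 2333 normalized counts and a log2 fold change of -0.57 (SE 0.20, adjusted p = 0.038). Of 9 other complex I assembly factors tested, 1 rose and 3 fell, among them Tmem186 (-1.54) and Ecsit (-1.12). For each of these 3 named factors the adjusted p passed 0.05 in some of the comparisons that left out 1 library, where it reached 0.076 to 0.095.

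Complex II, which also belongs to the tricarboxylic acid cycle, was split within its 4 subunits. Sdha, the flavoprotein that oxidises succinate (chr13:74470373-74498367), had 9675, 11152, 10389, 8965 and 5679 normalized counts in hypHSCs and 14985, 17278, 12779, 15768 and 16772 in qHSCs, which gave a log2 fold change of -0.79 (SE 0.20, adjusted p = 0.008). All hypHSC libraries were below all qHSC libraries. Sdhb, its iron-sulphur partner, had 9380.0, 9267, 9034, 17143 and 28371 against 6253, 6065, 6817, 6851 and 8163, a log2 fold change of 0.94 (SE 0.31, adjusted p = 0.027), with all hypHSC libraries above and hypHSC 5 the highest. Without single libraries the adjusted p of Sdhb reached 0.064. Sdhd rose (0.57) and Sdhc did not pass the test (-0.10).
In complex III 4 of 9 entries rose and none fell, all 4 of them among the 5 accessory subunits, and none of the 4 core subunits passed the test. Uqcrc1, a large core subunit, had 7213, 8467, 7308, 18545 and 9597 against 6998, 7564, 7496, 7726 and 13114, a log2 fold change of 0.20 (SE 0.28, adjusted p = 0.6). hypHSC 4 and qHSC 5 each stood above the rest of their group. Cyc1, the cytochrome c1, had 445 to 2429 against 454 to 1443, a log2 fold change of 0.38 (SE 0.46, adjusted p = 0.53), and Uqcrfs1, the Rieske iron-sulphur protein, 553 to 3294 against 592 to 850.3, a log2 fold change of 0.75 (SE 0.41, adjusted p = 0.16). With equal library totals Uqcrc1 and Cyc1 were at -0.29 and -0.10. Cycs, the cytochrome c that carries electrons to complex IV and is released in apoptosis, had 19996, 15237, 10936, 30995 and 53123 against 7917, 8774, 11450.5, 12931 and 11651, a log2 fold change of 1.10 (SE 0.37, adjusted p = 0.032). hypHSC 3 was below qHSCs 3, 4 and 5, and the adjusted p reached 0.076 without single libraries. In Cycs 36.9% of its 59-base stretches occur elsewhere in the genome.

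Calls followed the coding length of the subunits. The 80 subunits, counted without extra copies, tissue isoforms and assembly factors, showed a Pearson correlation of -0.67 and a Spearman correlation of -0.61 between log2 fold change and log2 coding length, as a description over genes that share libraries. Under 300 coding bases 15 of 17 rose, with a median log2 fold change of 1.11. From 300 to under 450 bases 13 of 26 rose, with a median of 0.79, from 450 to under 700 bases 6 of 19, with 0.46, and from 700 bases 4 of 18, with 0.23, where 2 fell. Over all 13393 tested entries with a symbol and a coding length the same classes had medians of 0.79, 0.50, 0.18 and -0.27, with 46.0%, 36.1%, 31.0% and 19.8% rising, and the Pearson correlation was -0.12. Within each class the median of the subunits lay above that of all entries, a difference that was not tested.
Short genes outside the members also moved by library. The median log2 difference from the qHSC mean was higher in the 820 entries with under 450 coding bases than in the 3904 with 2000 or more by 0.70, 0.36, 0.10, 1.18 and 1.77 in hypHSCs 1 to 5 and by -0.25 to 0.22 in qHSCs. The part of this length gradient in the results for short subunits was not tested beyond a correction for exon length, under which 35 nuclear entries rose and 6 fell.

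**Figure D5:**
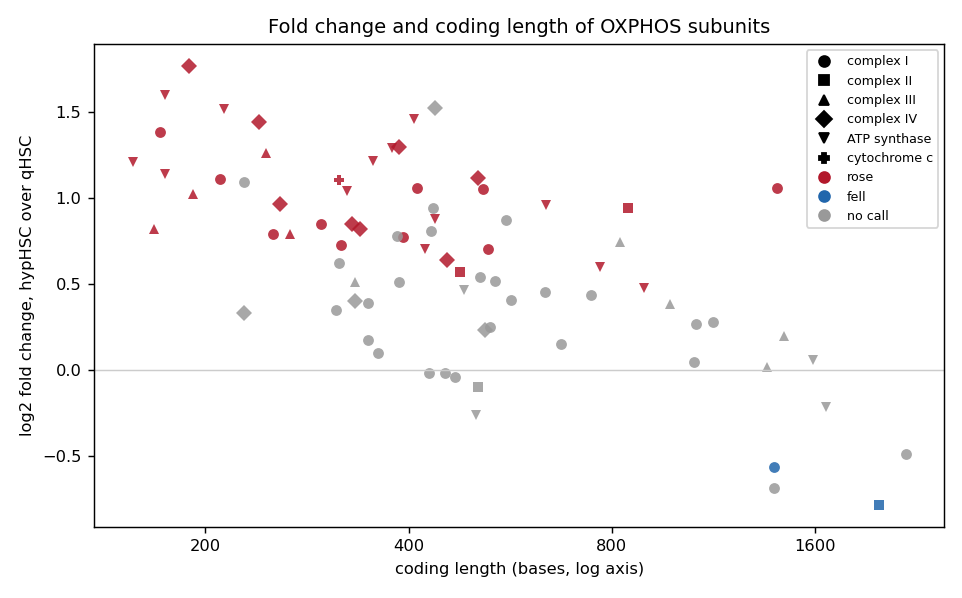
Log2 fold change against coding length of 80 OXPHOS subunits, with a log axis for length, shape for the complex and colour for the call. 15 of the 17 subunits under 300 coding bases rose, and both subunits that fell are in the class of 700 or more.

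Promoter sequences from RefSeq (GRCm38.p6, 250 bases before to 50 after the start) were found for 78 of the 101 nuclear members. Searched on both strands, the palindromic NRF1 motif was in 7 of them (8.97%) against 1.07% of 27025 genes, and the GABPA motif CCGGAAG in 19 (24.4%) against 9.93%, both being binding motifs of factors known for respiratory chain genes. The motifs share no bases when both occur in the promoters shown. Of the 7 with the NRF1 motif 2 rose and none fell, with a median log2 fold change of 0.20. Of the 19 with the GABPA motif 12 rose and none fell, with a median of 0.79, and of 53 tested with neither 22 rose and 3 fell, with a median of 0.62. These are matches of letters, not measured binding. The promoters of 3 members are shown 5′ to 3′ on the strand of the gene with the motifs in capitals, first NRF1 and then GABPA as read on the other strand, Atp5k and Cox6a1 as the only members that hold both motifs, of which Atp5k rose and Cox6a1 did not pass the test, and Cox7a1 as an isoform that rose and holds neither.
Atp5k, chr5:108434350-108434649 on the minus strand: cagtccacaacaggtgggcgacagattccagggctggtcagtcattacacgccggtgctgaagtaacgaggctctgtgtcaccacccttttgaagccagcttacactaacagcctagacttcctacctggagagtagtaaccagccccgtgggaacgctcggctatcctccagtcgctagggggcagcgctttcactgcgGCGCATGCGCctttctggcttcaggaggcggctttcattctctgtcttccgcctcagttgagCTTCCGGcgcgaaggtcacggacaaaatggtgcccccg
Cox6a1, chr5:115348909-115349208 on the minus strand: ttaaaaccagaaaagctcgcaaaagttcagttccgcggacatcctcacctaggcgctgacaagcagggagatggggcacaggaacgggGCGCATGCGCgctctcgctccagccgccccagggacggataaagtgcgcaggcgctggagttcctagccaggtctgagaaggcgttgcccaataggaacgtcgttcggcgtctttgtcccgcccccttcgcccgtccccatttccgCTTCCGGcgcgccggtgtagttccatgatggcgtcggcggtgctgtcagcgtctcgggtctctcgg
Cox7a1, chr7:30183921-30184220 on the plus strand: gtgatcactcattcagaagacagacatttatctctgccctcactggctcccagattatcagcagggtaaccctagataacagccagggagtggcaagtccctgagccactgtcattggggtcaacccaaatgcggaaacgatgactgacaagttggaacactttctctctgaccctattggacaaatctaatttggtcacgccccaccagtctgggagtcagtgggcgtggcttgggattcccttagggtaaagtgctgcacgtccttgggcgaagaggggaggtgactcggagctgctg

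Of 10 regulators of these genes 3 rose and 2 fell, against 19.1% and 24.9% of all entries tested. Nrf1, an activator of nuclear respiratory chain genes, had 216, 253, 270.3, 189 and 87.7 normalized counts in hypHSCs and 548, 506, 399.9, 507 and 448 in qHSCs, which gave a log2 fold change of -1.33 (SE 0.31, adjusted p = 0.0042), without overlap. Gabpa, Gabpb1, Esrra, Pprc1 and Hif1a did not pass the test, with log2 fold changes of -0.54, -0.90, 0.68, -0.15 and 0.07. The coactivators Ppargc1b and Ppargc1a rose. Ppargc1b had 245, 323, 393, 260.2 and 204 against 73.3, 37.5, 32.3, 157 and 12.0, a log2 fold change of 2.61 (SE 0.57, adjusted p = 0.0032). Ppargc1a had 133, 32.1, 27.4, 75.5 and 6.05 against 0, 0, 10.2, 0 and 5.25, a log2 fold change of 3.98 (SE 0.99, adjusted p = 0.0068). For Ppargc1a hypHSC 5 lay below qHSC 3, and the qHSC values were too low for the size of the change to be certain. Tfeb, a regulator of lysosomal genes, rose by 3.01 (SE 0.54, adjusted p = 0.00086). Epas1, which encodes a hypoxia-inducible factor, had 74.1, 358, 328, 2.10 and 12.1 against 4062, 5681, 651, 1943 and 1415, a log2 fold change of -5.36 (SE 1.22, adjusted p = 0.004), with a wide spread in both groups.
Of 15 genes for transcription, replication and packaging of the mitochondrial genome none rose and 3 fell, with a median log2 fold change of 0.03. Tfam, which packages the genome and starts its transcription, had 1504, 1256, 1587, 1804 and 2822 against 2149, 2226, 1684, 1655 and 2156 normalized counts, a log2 fold change of -0.18 (SE 0.22, adjusted p = 0.53). Polrmt, the RNA polymerase, had 78.7 to 203 against 69.7 to 204, a log2 fold change of 0.03 (SE 0.37, adjusted p = 0.96). Neither passed the test, and the groups overlapped in both. The genes that fell were Mterf2 (-4.95, SE 1.25, adjusted p = 0.0074), Mterf3 (-0.83, SE 0.19, adjusted p = 0.0044) and Mgme1 (-1.04, SE 0.28, adjusted p = 0.011). Tfb1m, Tfb2m, Tefm, Mterf1a, Mterf4, Polg, Polg2, Twnk, Ssbp1 and Top1mt did not pass the test, with log2 fold changes from -0.51 (Twnk) to 0.60 (Mterf1a).
Of 19 genes of mitochondrial RNA processing and stability 4 rose and 1 fell. Slirp and Lrpprc, partners in a complex that stabilises mitochondrial messenger RNAs, had 10318, 8405, 7393, 22155 and 45893 against 5081, 4961, 6940.1, 5769.9 and 6786 and 717, 598, 454, 1161 and 2668 against 466, 360.4, 418, 387 and 463 normalized counts, with log2 fold changes of 1.31 (SE 0.44, adjusted p = 0.031) and 1.12 (SE 0.41, adjusted p = 0.043). In both hypHSC 5 was the highest, and leaving out single libraries raised the adjusted p to 0.073 and 0.091.

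Of the carriers, Ucp2, an inner membrane protein of the uncoupling protein family, had 22323, 33182, 26728, 17031 and 14444 normalized counts in hypHSCs and 2129, 749.8, 1022, 2799.8 and 764 in qHSCs, which gave a log2 fold change of 4.08 (SE 0.39, adjusted p = 1.1e-05). Every hypHSC library was far above every qHSC library. Slc25a4, the adenine nucleotide carrier of heart and muscle, had 8014, 8426, 7010.3, 6608 and 2078 against 16044, 15493, 14242, 14526 and 16008, a log2 fold change of -1.40 (SE 0.34, adjusted p = 0.0058), and was lower in all hypHSC libraries. In all, 2 of the 4 carriers tested rose and 1 fell, against 19.1% and 24.9% of all entries tested.
Of 14 enzymes of the tricarboxylic acid cycle none rose and 2 fell, Suclg2 (-1.85) and Idh3g (-0.50), with a median log2 fold change of -0.33. Of 11 genes of outer membrane porins and import 5 rose and none fell, led by Tomm20 (1.96) and Tomm70a (1.33). Of 6 complex III assembly factors tested 2 rose and 3 fell, among them Lyrm7 (-1.35, adjusted p up to 0.079 without single libraries) and Uqcc1 (-0.95). Of 11 genes of coenzyme Q synthesis 1 rose, Coq7 (0.85, adjusted p up to 0.055 without single libraries, and -0.09 when scaled to Hprt, Pgk1 and Actb), and 1 fell, Coq5 (-0.60). None of 4 complex II assembly factors passed the test. Of 6 genes that act with cytochrome c in apoptosis 2 rose, Apaf1 (1.64) and Bax (1.20).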

How the data were processed

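Poly(A) RNA-seq libraries of 5 hypHSC and 5 qHSC preparations were read as non-stranded pairs. The authors mapped reads with STAR to mm39, counted them per gene with featureCounts (Subread 1.5.0) on the Mouse FAST DB annotation and deposited counts divided by a DESeq2 size factor, a normalized signal without negative values. Overlapping and multiply mapped reads could change the counts of nested entries and of genes with copies. Whole reads were recovered for 100% of values within 0.01 reads and gave the library totals.

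Entries that reached 10 normalized counts in 5 or more of the 10 libraries were tested with limma 3.58.1 (trended empirical Bayes, R 4.3.3) on log2(normalized count + 1), which understates changes of low entries, with Benjamini-Hochberg adjustment over all entries tested. Read shares were described without a test. DESeq2 1.42.0 and edgeR 4.0.16 on the recovered reads, pseudocounts, filters, scalings, GC and length corrections, a replicate block, subsets by diet time and age, and leaving out each library were alternatives. The limma fit was tested on simulated counts with the same spread setting in both groups. For entries such as mt-Co1 the hypHSC libraries spread more widely than the qHSC libraries, which the simulation did not cover. Named genes were all protein-coding and rRNA entries of the mitochondrial genome, the largest rises and falls among nuclear members whose mean was 100 normalized counts or more, fixed core subunits, isoforms with their partners, and fixed related lists, of which single members were named as examples after their values were seen. A nuclear member enters the counts and medians, and its own values are not reported here. Members and lists were chosen with earlier results of these data known. Floors and totals cover counting error only.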

Additional observations from a re-analysis of the deposited data

Results flagged for a closer look

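Of 202 groups of 5 libraries examined, over 101 measures, 20 held a library whose gap to its nearest neighbour exceeded 0.71 of the range of the group (Dixon's criterion). Independent values with a normal spread would give about 1 in 20 groups. The counts were taken without logs and some measures share bases, so that this rate is no reference for the number found. The libraries concerned were hypHSC 5 in 5 groups, hypHSC 1 in 4, qHSC 5 in 3, hypHSC 4, qHSC 1, qHSC 2 and qHSC 3 in 2 each. Values are normalized counts. hypHSC 1 stood apart for mt-Rnr1 (223849 against 28002 to 84779), stretch within mt-Rnr1 (107632 against 13354 to 40515), stretch within mt-Co1 (chromosome 1 copy) (1188526 against 151498 to 434551), Mterf2 (158 against 0 to 39.3). qHSC 2 stood apart for stretch within mt-Nd1 (14424 against 16542 to 17041), Ecsit (1029 against 812 to 857). qHSC 1 stood apart for Cox6a2 (44.4 against 0 to 8.24), Tefm (851 against 1003 to 1039.7). hypHSC 5 stood apart for Cox7a1 (644 against 105 to 243), Cox7c (38105 against 5592 to 14721), Gabpa (578 against 282 to 363), Slc25a4 (2078 against 6608 to 8426), Tomm70a (1921 against 643 to 913). qHSC 5 stood apart for Ndufa4l2 (3416 against 1968 to 2364), Uqcrc1 (13114 against 6998 to 7726), Cox5a (579 against 262 to 335). hypHSC 4 stood apart for Uqcrc1 (18545 against 7213 to 9597), Tfb1m (38.8 against 116 to 142). qHSC 3 stood apart for Mterf2 (350 against 291 to 305), Suclg2 (613 against 904 to 993).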

How the results depend on the processing

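The nuclear entries gave 26 DEGs. Their number was 13 with equal totals (6 higher, 7 lower) and 13 with equal totals outside the mitochondrial genome (8 and 5), 18 with Hprt, Pgk1 and Actb (2 and 16, against 23 and 3 on the deposited scale), 18 with the length correction (15 and 3), 17 with the 13-week hypHSCs only, 15 with hypHSCs 1, 2 and 3 only and 16 with qHSCs 2, 3 and 5 only, both chosen after seeing the data, and 16 to 36 when 1 library was left out, with 16 without hypHSC 5. At an adjusted p of at most 0.05 there were 48 nuclear entries, 31 with equal totals, 26 with Hprt, Pgk1 and Actb, 27 with 36-week qHSCs only, 21 with qHSCs 2, 3 and 5 only and 35 to 61 without 1 library. DESeq2 gave 34 DEGs and 57 calls and edgeR 32 and 52. The 13 mitochondrial entries passed both criteria in 6 cases with Hprt, Pgk1 and Actb, in 10 with 36-week qHSCs only and with qHSCs 2, 3 and 5 only, in 10 with 12-week hypHSCs only, where 13 passed the adjusted p alone, in 11 with the length correction, in 12 with either scaling to equal totals and in 12 to 13 without 1 library. Their median share of reads in qHSCs, 1.56%, was 1.73% of reads on entries with a symbol and 1.23% for protein-coding entries. It was 3.13% with the chromosome 1 copy and 1.5% to 1.57% without 1 library. In hypHSCs the median, 3.42%, became 3.91% of reads on entries with a symbol and 2.84% for protein-coding entries. There it was 6.38% with the chromosome 1 copy and 3.26% to 5.35% without 1 library. The replicate numbers were not used to pair libraries: deviations of same-numbered libraries correlated by 0.039 to 0.11, and 2 of 5 hypHSC libraries correlated best with their own number. The replicate block gave 27 nuclear DEGs, 50 nuclear calls and 13 mitochondrial DEGs. The fit on entries with a symbol only gives no value for mitochondrial entries, since none has one. The cause of each change was not tested.

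Log2 fold changes of single genes changed sign as follows. With equal totals they were -0.29 (Uqcrc1), -0.10 (Cyc1), -0.43 (Atp5b), -0.087 (Cox6a1), -0.25 (Cox7a2l), -0.41 (Hif1a), -0.45 (Polrmt), -0.19 (Tefm), -0.43 (Mterf4), -0.43 (Polg), -0.42 (Polg2), -0.23 (Ssbp1), -0.46 (Top1mt). With equal totals outside the mitochondrial genome they were -0.22 (Uqcrc1), -0.037 (Cyc1), -0.36 (Atp5b), -0.022 (Cox6a1), -0.19 (Cox7a2l), -0.35 (Hif1a), -0.39 (Polrmt), -0.13 (Tefm), -0.37 (Mterf4), -0.36 (Polg), -0.36 (Polg2), -0.16 (Ssbp1), -0.40 (Top1mt). Scaled to Hprt, Pgk1 and Actb they were -0.74 (Uqcrc1), -0.19 (Uqcrfs1), -0.55 (Cyc1), -0.88 (Atp5b), -0.54 (Cox6a1), -0.12 (Cox7a2), -0.71 (Cox7a2l), -0.30 (Cox8a), -0.088 (Ndufa4), -0.058 (Atp5g2), -0.23 (Atp5g3), -0.26 (Esrra), -0.87 (Hif1a), -0.90 (Polrmt), -0.36 (Tfb1m), -0.65 (Tefm), -0.34 (Mterf1a), -0.88 (Mterf4), -0.88 (Polg), -0.87 (Polg2), -0.68 (Ssbp1), -0.91 (Top1mt), -0.087 (Coq7). With 13-week hypHSCs only they were -0.093 (Uqcrc1), -0.055 (Cyc1), 0.021 (Atp5a1), -0.30 (Polrmt), -0.12 (Tefm), -0.24 (Polg2), 0.024 (Twnk). With hypHSCs 1, 2 and 3 only they were -0.12 (Uqcrc1), -0.32 (Cyc1), 0.16 (Pprc1), -0.075 (Hif1a), -0.0018 (Polrmt), -0.17 (Tefm), -0.20 (Polg2), -0.082 (Ssbp1). With 12-week hypHSCs only they were -0.051 (Atp5b), 0.036 (Tfam), -0.12 (Mterf4), -0.12 (Polg), -0.11 (Top1mt). With 36-week qHSCs only they were -0.017 (Atp5b), -0.016 (Polrmt), -0.097 (Polg), -0.29 (Polg2). With the length correction they were -0.074 (Atp5b), -0.014 (Cox7a2l), -0.19 (Mterf4), -0.16 (Polg2). With the GC correction they were -0.10 (Hif1a), -0.0497 (Mterf4). With qHSCs 2, 3 and 5 only they were -0.13 (Polg). Without 1 library the range was -0.043 to 0.36 (Uqcrc1), -0.30 to 0.075 (Pprc1), -0.038 to 0.15 (Hif1a), -0.21 to 0.23 (Polrmt), -0.10 to 0.26 (Mterf4), -0.054 to 0.18 (Polg), -0.11 to 0.28 (Polg2), -0.11 to 0.14 (Top1mt).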
